A study of Homo sapiens with 2 samples.

Results

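The genes described here encode the chaperones of the cytosol, nucleus and mitochondria, the proteins that help other proteins fold, together with their helper proteins and the transcription factors that induce them. They were taken from a list of 44 human genes, and a gene was measured when at least 1 probe set on the array was annotated to it alone, under its current or an older symbol. This held for 38 of the 44, among 18392 genes measured in all. Expression was measured on 2 arrays of PC3 cells, a cell line from a bone metastasis of a human prostate adenocarcinoma. One array held RNA of PC3 cells treated with fluphenazine at 10 µM, an antipsychotic drug of the phenothiazine class and a blocker of dopamine receptors. The other held RNA of PC3 cells treated with DMSO, the control, and both were maintained in RPMI-1640 with fetal bovine serum. How long the cells were treated is not stated in the labels. With 1 array per treatment no value has an error between cultures, no test across samples was possible, and every difference below is between these 2 arrays.

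Chaperones bind proteins that are unfolded or still being made and release them in cycles driven by ATP. HSP70 proteins take up short greasy stretches, handed over by J-domain proteins (HSP40) and released with the help of nucleotide exchange factors. HSP90 finishes the maturation of kinases and steroid receptors, small heat shock proteins hold unfolded chains, and chaperonins enclose them in a barrel. When unfolded proteins accumulate, the transcription factor HSF1 binds heat shock elements in the promoters of many of these genes and induces them. In prostate cancer the pathway is best known through the androgen receptor, a client of HSP90 and its co-chaperones.

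As a group these genes were slightly lower in the fluphenazine-treated cells, and none differed strongly. Of the 38 measured members, 37 reached the expression floor, a log2 signal of 6.19 on at least 1 array, which is the median of the higher value over all genes and a rank, not a detection call. The exception was HSPB8. Of the 37, 28 were lower with fluphenazine and 9 higher, or 75.7% lower, where 51.8% of all 9196 genes above the floor were lower and 48.2% higher. Their median log2 difference, fluphenazine minus DMSO, was -0.08, beside -0.01 over all genes above the floor. The 3 members at least 1.2-fold lower were HSPA2, HSPB1 and STIP1, where 4.69% of all genes above the floor were that much lower. STIP1 lost this call when the arrays were centred on their median (-0.26) or 75th percentile (-0.25) and with the mean of its probe sets or the median of those above the floor (-0.16 each). With that mean CCT5 was past the limit instead (-0.29), and with that median FKBP4 was (-0.29). Without probe sets whose identifiers end in _s_at or _x_at, no member was at least 1.2-fold lower. HSPA13 alone was at least 1.2-fold higher, where 4.84% of all genes were. No member reached 1.5-fold in either direction, as 0.294% of all genes did downwards and 0.283% upwards.

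Probe sets that read the same gene on these arrays had differences with a pooled SD of 0.13 over 3668 genes, and of 0.12 over the 18 members read by 2 or more probe sets above the floor. Among those 18, all probe sets above the floor were lower for 7 members and higher for 4, and for the other 7 they lay on both sides of 0. Counted by probe set, 45 of 64 above the floor were lower (70.3%), beside 52.7% of all probe sets above it. Of the 64, 7 were at least 1.2-fold lower and 2 at least 1.2-fold higher, both of HSPA13, where 5.38% and 4.96% of all probe sets were. Among genes with a signal of 8.43 or more, the 75th percentile, 21 of 29 members were lower (72.4%), beside 48.6% of all 4598 genes there. The bacterial poly-A spike-ins, added to the RNA before labelling, were lower on the fluphenazine array at all 24 probe sets, with a median difference of -0.22, and of -0.34 at their 5' ends and -0.12 at their 3' ends. The human control probe sets of ACTB differed by -0.13 at the 5' end, -0.17 in the middle and 0.00 at the 3' end. Those of GAPDH differed by 0.06, -0.02 and 0.03 in the same order. The labels name a labelling kit made for whole transcripts, whereas the probe sets are those of an array read near the 3' ends of transcripts, and how the kit and the array were combined is not stated. Whether what lowered the spike-ins also touched the chaperone genes was not tested.

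The cells matched their label in part. All 5 markers of epithelial or PC3 cells were above the floor, among them EPCAM at 12.72 with fluphenazine and 12.65 with DMSO and KRT18 at 12.55 with fluphenazine and 12.67 with DMSO. VIM and KRT8 were lower with fluphenazine, with differences of -0.48 and -0.42. Of 13 markers of blood, endothelial and fibroblast cells, 11 were under the floor, and PECAM1 and COL1A1 were well above it. PECAM1 was at 8.49 with fluphenazine and 8.76 with DMSO (-0.27), with 3 probe sets above the floor. COL1A1 was at 8.33 on both arrays, with 2 probe sets above the floor. The summed level of all 13 markers, as log2, was 9.77 with fluphenazine and 9.87 with DMSO. KLK3 (PSA), which PC3 cells are known to lack, was read at 6.90 with fluphenazine and 6.93 with DMSO, so a value just above the floor does not show that a gene is expressed.

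**Figure D1:**
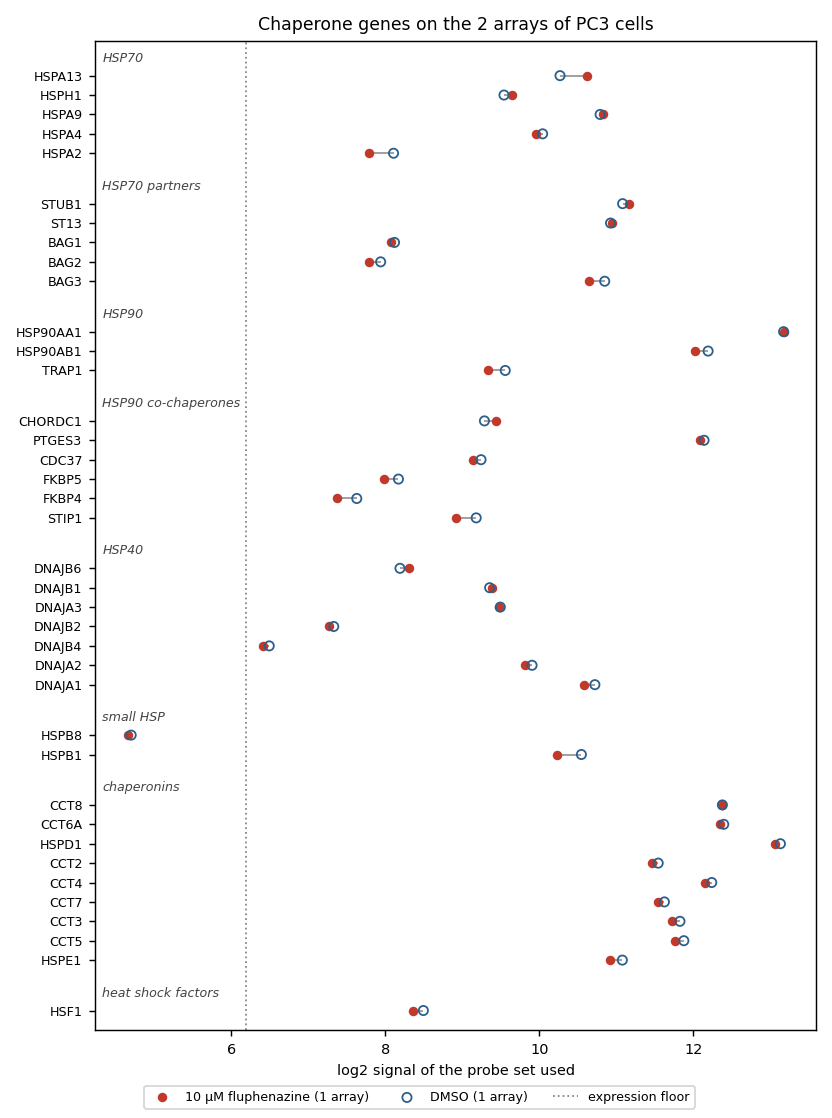
Log2 signal (horizontal axis) of the 38 measured chaperone genes on the fluphenazine array (filled) and the DMSO array (open), by class and, within a class, by difference. Signals of different probe sets cannot be compared with each other. The gap within a gene is widest for HSPA13, HSPA2 and HSPB1, and HSPB8 lies left of the floor of 6.19.

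Heat shock elements are runs of the unit GAA in alternating orientation. The promoters of 39 members were found in RefSeq's table for GRCh38.p14, as 52 windows from 250 bases before to 50 bases after a start, since some genes have several starts. They were searched for the 2-unit forms GAANNTTC and TTCNNGAA and for the 3-unit forms, which are GAANNTTC followed by NNGAA, and TTCNNGAA followed by NNTTC, where N is any base. Each 2-unit form is its own reverse complement and the 3-unit forms are each other's, so both strands are covered, and a 3-unit match always holds both 2-unit forms. A 3-unit form was present for 7 of 39 members (17.9%), beside 0.608% of all 27305 genes in the table. Counted by window, it was in 7 of 52 (13.5%), beside 0.490% of all 35116 windows. A 2-unit form was present for 19 of 39 members (48.7%), beside 16.2% of all genes. A match describes letters only and does not show that HSF1 binds there. The 3-unit matches are printed with up to 8 bases on each side, 5′ to 3′ on the strand of the gene, with the matched letters in capitals, because they mark the members whose promoters carry the longest run of the HSF1 motif. Position 0 is the first base of the transcript.
HSPD1 (chr2:197500062-197500090, minus strand, match from -245 to -228): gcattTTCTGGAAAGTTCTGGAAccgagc
CHORDC1 (chr11:90223084-90223112, minus strand, match from -60 to -38): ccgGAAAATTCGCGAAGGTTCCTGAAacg
HSP90AA1 (chr14:102087112-102087140, minus strand, match from -88 to -76): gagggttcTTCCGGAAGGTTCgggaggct
HSP90AB1, first match (chr6:44247770-44247798, plus strand, from -165 to -153): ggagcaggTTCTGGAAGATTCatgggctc
HSP90AB1, second match (chr6:44247823-44247851, plus strand, from -112 to -100): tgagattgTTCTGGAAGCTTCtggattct
HSPA8, first match (chr11:123062346-123062374, minus strand, from -230 to -218): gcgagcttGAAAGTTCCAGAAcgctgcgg
HSPA8, second match (chr11:123062171-123062199, minus strand, from -55 to -43): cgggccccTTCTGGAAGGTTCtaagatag
DNAJA1 (chr9:33025268-33025296, plus strand, match from 3 to 15): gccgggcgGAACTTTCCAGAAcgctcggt
DNAJB6 (chr7:157336865-157336893, plus strand, match from -131 to -119): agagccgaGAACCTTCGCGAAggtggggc

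Of the 6 members above the floor with a 3-unit match, 3 were higher with fluphenazine (CHORDC1, DNAJB6 and, at 0.00, HSP90AA1) and 3 lower (HSP90AB1, DNAJA1 and HSPD1). Their differences ranged from -0.17 to 0.15 with a median of -0.03. HSP90AA1 was lower under 4 alternatives, at -0.03 after quantile normalization, -0.12 with the mean of its probe sets, -0.13 with the median of those above the floor and -0.17 without probe sets whose identifiers end in _s_at or _x_at. Of the 26 members above the floor whose windows hold no 3-unit match, 22 were lower, and their median was -0.08, where 51.8% of all genes were lower. The 26 include BAG3, DNAJB1, HSPH1, HSPB1 and STIP1, which are listed as heat-inducible further below. Lack of a 3-unit match in these windows therefore does not show that a gene is not induced by HSF1. HSPE1 is among the 26 because of the window limit. Its window begins at chr2:197500129, and the HSPD1 stretch printed above, at chr2:197500062-197500090, lies upstream of that. The following alternatives were applied to both groups after seeing the data. With the mean of each gene's probe sets, 4 of the 6 were lower with a median of -0.10, and 19 of the 26 with a median of -0.09. With the median of those above the floor, 4 of the 6 (-0.09) and 21 of the 26 (-0.10) were lower. After quantile normalization it was 4 (-0.06) and 22 (-0.09). Without _s_at and _x_at probe sets, 3 of 3 (-0.17) and 13 of 15 (-0.08) were lower. Either centring left 3 of the 6 lower. The difference between these groups was not tested. None of the 3 members at least 1.2-fold lower, and not HSPA13, carried a 3-unit match in these windows. The upstream sequences of HSPB1 and HSPA13 are printed because these genes stood near the lower and at the upper end of the members' differences. That of HSPB1 holds a single 2-unit match, in capitals, and that of HSPA13 holds none.
HSPB1 (chr7:76302423-76302672, plus strand): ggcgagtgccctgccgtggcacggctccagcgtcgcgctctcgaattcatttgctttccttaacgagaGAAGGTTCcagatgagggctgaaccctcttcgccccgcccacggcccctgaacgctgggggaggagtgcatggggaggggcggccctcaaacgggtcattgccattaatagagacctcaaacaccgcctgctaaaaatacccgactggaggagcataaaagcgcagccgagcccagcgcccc
HSPA13 (chr21:14383147-14383396, minus strand): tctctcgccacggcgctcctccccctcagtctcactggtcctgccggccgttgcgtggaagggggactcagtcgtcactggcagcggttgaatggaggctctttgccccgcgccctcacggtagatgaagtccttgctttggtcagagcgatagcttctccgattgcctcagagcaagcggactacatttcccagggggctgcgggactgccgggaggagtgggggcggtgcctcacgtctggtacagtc

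The HSP70 family went both ways. HSPA13, an HSP70-like ATPase of the microsomes and thus not a cytosolic chaperone, had the largest positive difference of all members. Its log2 signal was 10.62 with fluphenazine and 10.27 with DMSO, a difference of 0.35 or 1.27-fold. A second probe set gave 8.97 with fluphenazine and 8.52 with DMSO, a difference of 0.46, so both probe sets of HSPA13 were more than 1.2-fold higher with fluphenazine. HSPA2, a form of HSP70 best known for its role in sperm formation, lay at the other end, at 7.78 with fluphenazine and 8.11 with DMSO (-0.32, or 1.25-fold lower). It was read by 1 probe set. The mitochondrial HSP70, HSPA9 (mortalin), which pulls proteins through the inner membrane and folds them, hardly differed, at 10.82 with fluphenazine and 10.79 with DMSO (0.03). Its 3 probe sets above the floor spanned 0.03 to 0.06.

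Both HSP110 proteins among the members, relatives of HSP70 that act as its nucleotide exchange factors, were read inconsistently. HSPH1, which is heat-inducible, was at 9.64 with fluphenazine and 9.54 with DMSO by the probe set used (0.10). Its other probe set above the floor gave 7.49 with fluphenazine and 7.83 with DMSO (-0.34). HSPA4 was at 9.96 with fluphenazine and 10.04 with DMSO (-0.08), while its 4 probe sets spanned -0.32 to 0.04. The direction of HSPH1 therefore depends on the probe set, and the mean of its 3 probe sets was -0.19. For the same reason the median of the 5 measured HSP70 members was 0.03 with 1 probe set per gene and -0.15 with the mean of each gene's probe sets.

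The stress-inducible HSP70 genes HSPA1A and HSPA1B and the constitutive HSPA8 (HSC70) had no probe set of their own and are not in the counts above. HSPA1A and HSPA1B lie next to each other on chromosome 6 and encode the same protein, and the stretches around the 2-unit match of each promoter (in capitals) are nearly the same.
HSPA1A (chr6:31815426-31815455, plus strand): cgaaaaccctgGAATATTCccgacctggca
HSPA1B (chr6:31827622-31827651, plus strand): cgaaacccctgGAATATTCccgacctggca
Both probe sets annotated jointly to HSPA1A and HSPA1B were higher with fluphenazine by 0.06, one at 11.47 with fluphenazine and 11.41 with DMSO, the other at 9.72 with fluphenazine and 9.66 with DMSO. A further probe set, whose annotation adds HSPA1L, was at 10.50 with fluphenazine and 10.65 with DMSO (-0.15). HSPA8 shares its 4 probe sets in the annotation with SNORD14C and SNORD14D, small nucleolar RNA genes that lie within it, and these gave -0.22, -0.02, 0.09 and 0.14. No shared probe set of these HSP70 genes was 1.2-fold apart between the arrays. HSPA6, a strictly stress-induced HSP70 gene outside the members that was named after its values were seen, was under the floor, at 4.54 with fluphenazine and 5.11 with DMSO.

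The partners of HSP70 differed little. BAG3, a nucleotide exchange factor that links HSP70 to autophagy and is a classical HSF1 target, was at 10.64 with fluphenazine and 10.85 with DMSO (-0.21, or 1.15-fold lower). BAG2, which inhibits the ubiquitin ligase STUB1 (CHIP), was at 7.79 with fluphenazine and 7.94 with DMSO (-0.15). STUB1 itself was at 11.16 with fluphenazine and 11.08 with DMSO (0.08), and its other 2 probe sets gave -0.09 and -0.05. BAG1, another exchange factor, was at -0.05 with its 3 probe sets spanning -0.05 to 0.11. ST13 (HIP), which slows the release of clients, was at 0.01, with 3 probe sets between 0.01 and 0.02. The 5 partners had a median of -0.05 and none was 1.2-fold apart.

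HSP90 and its co-chaperones had the lowest medians of the classes with at least 3 members above the floor, at -0.17 and -0.14. With the mean of each gene's probe sets the order changed for the co-chaperones, with HSP90 at -0.22, the HSP70 family at -0.15 and the co-chaperones at -0.09. It changed as well with the 75th percentile floor, with the co-chaperones at -0.077 and the chaperonins at -0.083. HSP90AB1, the constitutive cytosolic HSP90, was at 12.02 with fluphenazine and 12.19 with DMSO (-0.17, or 1.13-fold lower). Its other 2 probe sets gave -0.41 and -0.11, so all 3 were lower with fluphenazine. HSP90AA1, the inducible form, was at 13.17 on both arrays by the probe set used (0.00, or -0.03 after quantile normalization), and its other 3 probe sets gave -0.24, -0.17 and -0.09. TRAP1, the mitochondrial HSP90, was at 9.34 with fluphenazine and 9.56 with DMSO (-0.22, or 1.16-fold lower), read by 1 probe set. Over all probe sets of the 3 HSP90 genes, 7 of 8 were lower, where 52.7% of all probe sets above the floor were.

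Of the 6 measured HSP90 co-chaperones, 5 were lower with fluphenazine, where 51.8% of all genes above the floor were. STIP1 (HOP), which passes clients between HSP70 and HSP90, was at 8.91 with fluphenazine and 9.18 with DMSO (-0.27, just past the 1.2-fold limit). Its second probe set gave 8.04 with fluphenazine and 8.09 with DMSO (-0.06). FKBP4 (FKBP52), a prolyl isomerase that potentiates steroid receptors, was at 7.37 with fluphenazine and 7.63 with DMSO (-0.26), just inside the 1.2-fold limit. Its other probe set above the floor gave -0.31, and the 2 under it 0.07 and 0.20, so that the mean of all 4 was -0.07.

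FKBP5 (FKBP51), a related isomerase and a target gene of steroid receptors, was at 7.99 with fluphenazine and 8.17 with DMSO (-0.18). CDC37, which brings kinases to HSP90, was at -0.10, and PTGES3 (p23), which stabilises the closed form of HSP90, at -0.05. CHORDC1, a zinc-binding partner of HSP90 and a strongly heat-inducible gene, was the one co-chaperone that was higher, at 9.43 with fluphenazine and 9.29 with DMSO (0.15, or 1.11-fold). Its second probe set, under the floor, gave -0.10, and one annotated jointly to CHORDC1 and NAALAD2, also under the floor, gave -0.21. AHSA1, the activator of the HSP90 ATPase, is not analysed here.

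**Figure D2:**
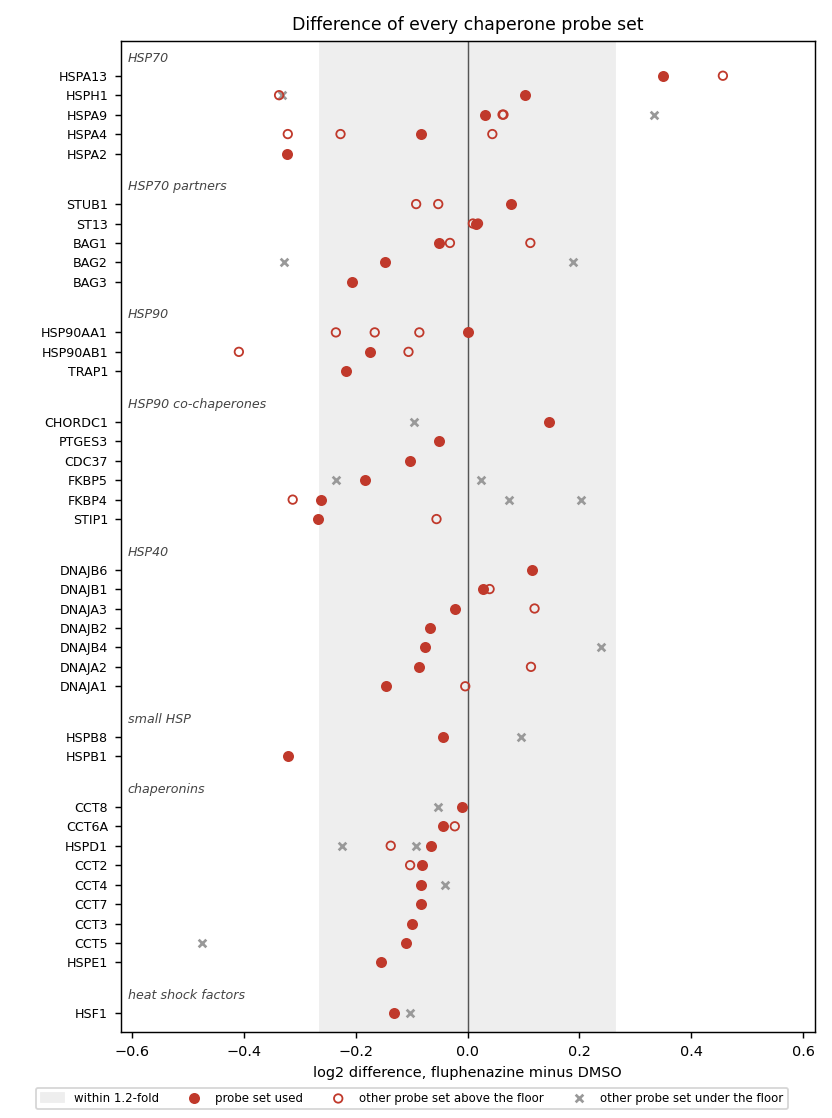
Log2 difference, fluphenazine minus DMSO (horizontal axis), of all 82 probe sets of the 38 measured members, by class. Filled points are the probe sets used, open points the others above the floor, crosses those under it, and the grey band is 1.2-fold in either direction. All 17 chaperonin probe sets shown lie left of 0, whereas HSPA4, HSPH1 and DNAJA2 have points above the floor on both sides. The probe set used for CCT8 lies at 0.01 when the arrays are centred on their 75th percentile. The chaperonin TCP1, whose probe sets are shared with SNORA29, is not shown, and the highest of these lies at 0.40.

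The J-domain proteins, which stimulate the ATPase of HSP70, stayed close to 0. DNAJB1 (HSP40), the main heat-inducible member, was at 9.38 with fluphenazine and 9.35 with DMSO (0.03), and its second probe set gave 0.04. DNAJA1, which is also inducible, was at 10.58 with fluphenazine and 10.72 with DMSO (-0.14), with a second probe set at 0.00. DNAJB6, a suppressor of aggregation, was the highest of the class at 8.31 with fluphenazine and 8.19 with DMSO (0.11). Of 2 probe sets annotated jointly to DNAJB6 and TMEM135, which are not counted, one gave 0.23 and the other -0.06.

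DNAJA2 was at -0.09 by the probe set used and 0.11 by the other, and the mitochondrial DNAJA3 (TID1) at -0.02 and 0.12. DNAJB2, known for its neuronal roles, was at -0.07. DNAJB4, just above the floor at 6.42 with fluphenazine and 6.49 with DMSO, was at -0.08. Its second probe set, under the floor, gave 0.24, so that the mean of both was 0.08. The 7 J-domain members had a median of -0.07 with 5 lower, which turned to 0.03 with the mean of each gene's probe sets. The direction of this class therefore rests on the choice of probe set.

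Of the small heat shock proteins, HSPB1 (HSP27), which holds unfolded chains and is abundant in many cancers, was at 10.22 with fluphenazine and 10.55 with DMSO (-0.32, or 1.25-fold lower). It was read by 1 probe set, and its difference stood at percentile 2.58 among all genes above the floor. HSPB8, the partner of BAG3, was under the floor on both arrays, at 4.66 with fluphenazine and 4.70 with DMSO. HSF1, the regulator of the heat shock response, was at 8.36 with fluphenazine and 8.49 with DMSO (-0.13), and its second probe set, under the floor, gave -0.10. HSF2 is not analysed here. HSF1 is controlled mainly at the level of the protein, so its transcript is no measure of its activity.

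The 9 chaperonin genes with a probe set of their own were the most uniform class. CCT, also called TRiC, is the cytosolic barrel that folds actin and tubulin and is built from different subunits, each from its own gene. All 7 measured CCT subunits were lower with fluphenazine, from -0.11 to -0.01 with a median of -0.08, although CCT8 turned to 0.01 when the arrays were centred on their 75th percentile. CCT5 was the lowest, at 11.76 with fluphenazine and 11.87 with DMSO (-0.11). Its other probe set, under the floor, gave 5.38 with fluphenazine and 5.86 with DMSO (-0.47), and the mean of both, -0.29, is past 1.2-fold. CCT3 was at 11.72 with fluphenazine and 11.82 with DMSO (-0.10), and CCT8 was the highest, at 12.37 on both arrays (-0.01). CCT7 was at 11.54 with fluphenazine and 11.62 with DMSO, and CCT4 at 12.15 with fluphenazine and 12.24 with DMSO, each with a difference of -0.08. CCT2 was at -0.08 and CCT6A at -0.04, each with a second probe set that was lower as well.

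The subunit gene TCP1 shares its 3 probe sets in the annotation with SNORA29, a small nucleolar RNA gene that lies within it, and is not counted. They gave -0.04, -0.01 and 0.40, the last at 8.52 with fluphenazine and 8.11 with DMSO. That probe set was more than 1.2-fold higher, against the direction of the counted chaperonins. The mitochondrial chaperonin HSPD1 (HSP60) was at 13.06 with fluphenazine and 13.13 with DMSO (-0.07), and its other probe set above the floor gave -0.14. Its lid HSPE1 (HSP10), whose gene lies head to head with HSPD1 on chromosome 2, was at 10.92 with fluphenazine and 11.08 with DMSO (-0.16, or 1.11-fold lower). The 9 chaperonin genes together were all lower, from -0.16 to -0.01 with a median of -0.08, with the same exception for CCT8, where 51.8% of all genes were lower. The same direction held at all 12 of their probe sets above the floor and at the 5 under it. Among the 9 differences only that of HSPE1 was larger than 0.12, the pooled SD between probe sets of a member.

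**Figure D3:**
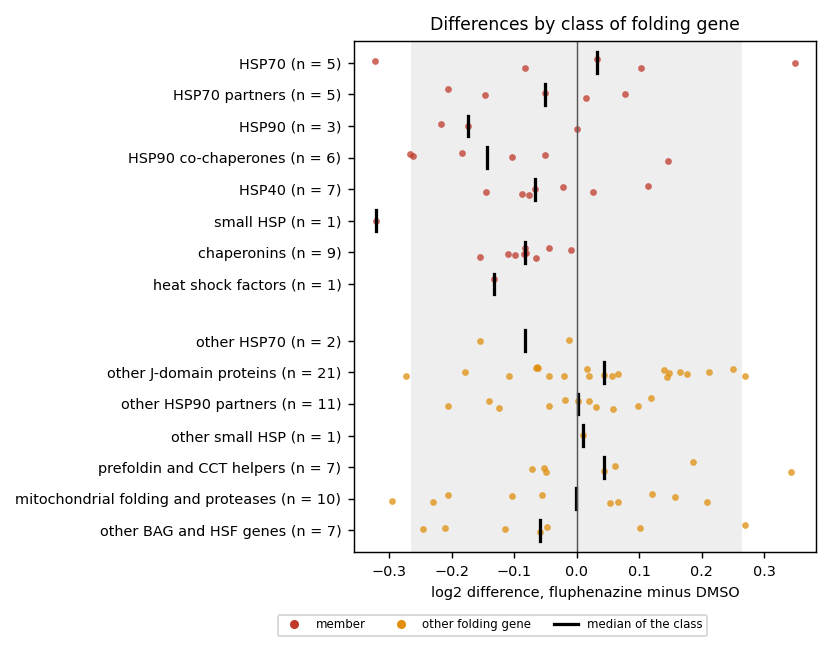
Log2 difference, fluphenazine minus DMSO (horizontal axis), of each gene above the floor, for the 8 classes of members (red) and 7 lists of other folding genes (orange), with the class median as a black line and the 1.2-fold range in grey. Points are spread vertically only to separate them. The 9 chaperonins shown, without TCP1, lie left of 0, with a median of -0.08 (CCT8 at 0.01 when the arrays are centred on their 75th percentile). The other J-domain proteins spread on both sides, with a median of 0.04.

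The 5 mitochondrial members (HSPA9, DNAJA3, TRAP1, HSPD1 and HSPE1) had a median of -0.07, or -0.13 with the mean of each gene's probe sets, and 4 were lower, where 51.8% of all genes above the floor were. The 12 measured members listed as heat-inducible had a median of -0.11 and ranged from -0.32 to 0.15. Of these, 8 were lower, 2 of them (HSPB1 and STIP1) at least 1.2-fold, where 4.69% of all genes were. The other 25 members above the floor had a median of -0.08 with 20 lower. None of the 12 heat-inducible members was at least 1.2-fold higher with fluphenazine, where 4.84% of all genes were. The list of heat-inducible members was drawn up from textbook knowledge and held 16 genes. HSPA1A, HSPA1B, HSPA8 and AHSA1 were on it but are not among the 12. HSPA8 was listed although it is described above as constitutive.

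Of 80 folding genes outside the members, 76 were measured and 59 reached the floor. Of these 28 were lower and 31 higher, where 51.8% of all genes were lower, with a median of 0.01. At least 1.2-fold lower were 2 of the 59, where 4.69% of all genes were. At least 1.2-fold higher were 3, among them HSPBAP1, where 4.84% of all genes were. The difference between members and these 59 genes was not tested. The 21 other J-domain proteins had a median of 0.04 with 13 higher, where 48.2% of all genes were. DNAJC24, a cofactor in the modification of a translation factor, was the highest of them (7.93 with fluphenazine and 7.66 with DMSO, 0.27), and DNAJC11, of the mitochondrial membrane, the lowest (7.58 with fluphenazine and 7.85 with DMSO, -0.27, with a second probe set at 0.04).

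The 11 other HSP90 partners had a median of 0.00, with NUDC at -0.21 and CDC37L1 at 0.12. The 10 genes of mitochondrial folding and proteolysis were split evenly. CLPB, a disaggregase, was at 7.34 with fluphenazine and 7.64 with DMSO (-0.30), and GRPEL2, an exchange factor for HSPA9, at 0.21, while its paralogue GRPEL1 was at -0.21. The 7 prefoldin subunits and CCT helpers had a median of 0.04, from PFDN5 at -0.07 to PDCL at 0.34 (7.68 with fluphenazine and 7.33 with DMSO), whose other probe set gave -0.20. Prefoldin hands actin and tubulin to CCT, and 3 of its 5 measured subunits, VBP1, PFDN1 and PFDN4, were higher, beside 48.2% of all genes. Among the other BAG and HSF genes, 5 of 7 were lower, where 51.8% of all genes were. SERPINH1 (HSP47), the collagen chaperone and an HSF1 target, was at -0.25, and HSPBAP1, a binding partner of HSPB1, at 0.27. HSPBAP1 read 6.29 with fluphenazine and 6.02 with DMSO, so it passed the floor of 6.19 only through the array where it was higher. Only 2 other HSP70 genes reached the floor, HSPA14 at -0.16 and HSPA4L at -0.01, and of the other small heat shock genes 1 did, IFT25 at 0.01.

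**Figure D4:**
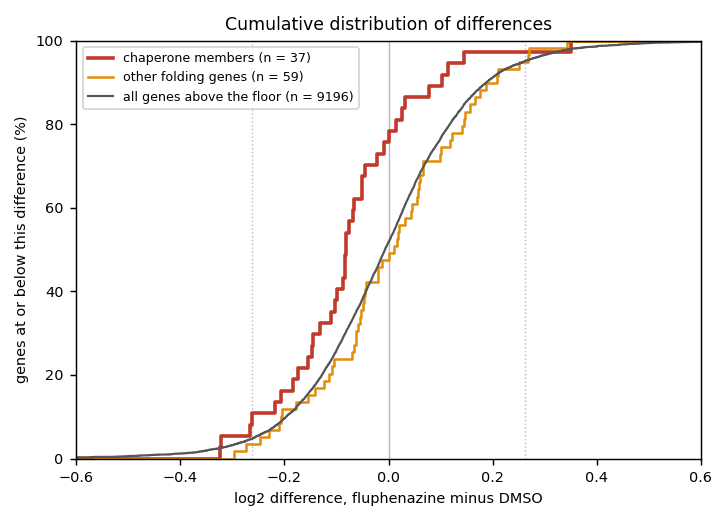
Share of genes (vertical axis, %) at or below a given log2 difference, fluphenazine minus DMSO (horizontal axis), for the 37 chaperone members, the 59 other folding genes and all 9196 genes above the floor. Dotted lines mark 1.2-fold. The curve of the members runs to the left of that of all genes, with 75.7% of members below 0 beside 51.8% of all genes.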

How the data were processed

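The authors deposited log2 signals, with 1 value for each probe set and array. The tools named, per the submitters' processing notes, are RMA, Transcriptome Analysis Console 3.1 and Affymetrix Expression Console 1.4, without their roles. No genome build is named for the array. The values of both arrays share nearly one distribution, so a difference is relative to the other genes, and the number of arrays limits the precision.

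Of 47693 probe sets, 37145 with exactly 1 gene in the platform annotation of 2016 were used, controls left out. Symbols were updated through the gene identifier. Per gene, the probe set with the highest mean signal was used. The floor was the median of the higher value over all genes. Folds of 1.2 and 1.5 are sizes, not tests. The counting was tested on simulated data. Python 3.11.15, numpy 2.4.6, pandas 2.3.3 and matplotlib 3.10.9 were used.

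Members, lists, thresholds and alternatives were chosen with earlier results of these data known. Values are printed for members past 1.2-fold, for those whose probe sets disagree by 0.3 or more, for the extremes and defining members of each class, and for the extremes of the other lists. Other members are printed although they fall outside this rule, among them BAG2, FKBP4, FKBP5, HSPA9, CCT3, CCT4, CCT5 and CCT7. HSPA6, GRPEL1 and the prefoldin subunits fall outside it as well. These last genes and the promoters of HSPB1 and HSPA13 were picked after their values were seen. Alternatives were 3 other scalings, 2 other summaries of probe sets, leaving out probe sets whose identifiers mark possible cross-hybridization, 2 other floors, a 1.5-fold limit, counting probe sets and leaving out the most extreme member.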

Additional observations from a re-analysis of the deposited data

How the results depend on the processing

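No paired analysis was possible because each treatment has 1 array. The median over all members stayed below 0 under the 9 alternatives run for it, from -0.09 to -0.06, as did that of the chaperonins (-0.09 to -0.06) and of HSP90 (-0.22 to -0.15). The smallest size for all members, -0.061, came with arrays centred on the 75th percentile, which put the median of all genes at 0.02. The share of members that were lower ranged from 72.4% to 90.0%, and that of all genes from 45.7% to 54.7%, with the ends from different settings. The 90.0% was 18 of 20 members, without _s_at and _x_at probe sets, beside 49.5% of all genes. The 72.4% was 21 of 29 members, with the 75th percentile floor, beside 48.6% of all genes. Single directions were less stable, since 8 of 37 members changed sign under at least 1 alternative, 7 of them with another choice of probe sets.

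With the mean of each gene's probe sets, the median was -0.15 for HSP70, -0.089 for HSP90 co-chaperones, 0.033 for HSP40, -0.13 for mitochondrial members, 0.016 for other HSP70 genes, -0.067 for mitochondrial folding and proteases and -0.14 for other BAG and HSF genes. With the median of the probe sets above the floor it was -0.12 for HSP70, 0.013 for HSP40 and -0.12 for other BAG and HSF genes. Without probe sets whose identifiers end in _s_at or _x_at, 20 members were left and 0 were at least 1.2-fold lower, because HSPA2, HSPB1 and the STIP1 probe set used carry such identifiers. In that setting mitochondrial folding and proteases stood at 0.054 and other BAG and HSF genes at 0.10. Mitochondrial folding and proteases stood at 0.054 as well with the 75th percentile floor and without its most extreme gene. The 75th percentile floor put HSP90 co-chaperones at -0.077, and no floor put the small heat shock proteins at -0.18. Counting probe sets gave 7 lower and 2 higher, the 1.5-fold limit gave 0 lower and 0 higher, and leaving out HSPA13 gave 0 higher. The causes were not tested.

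Each difference rests on 1 array per treatment, and no member exceeded 1.5-fold, so variation between cultures cannot be told apart from the treatment. Without probe intensities, signal over background is unknown.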
